A study of Mus musculus with 12 samples.

Results

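The T cell receptor (TCR) complex and other T cell genes were followed as 10 named genes out of the 40840 listed in each library: Cd3d, Cd3e, Cd3g, Cd247, Cd4, Cd8a, Cd8b1, Lck, Tcf7 and Il7r. All 10 were found by symbol. Total RNA was sequenced from liver cells of male C57BL/6 wildtype (WT) mice and of mice of the strain B6.129S4(D2)-Casp4tm1Yuan/J, here Casp11-/-, a caspase-11 knockout strain. Mice were 8 to 10 weeks old at the start and spent 12 weeks on normal chow diet (NCD) or high-fat diet (HFD). The design has 4 genotype and diet combinations of 3 libraries each, called WT-NCD and WT-HFD for wildtype mice and Casp11-/- NCD and Casp11-/- HFD for the knockout strain. The samples are labelled hepatic macrophages, but the methods describe an immune cell fraction from a Percoll step with no sort named for sequencing, and both T cell genes and hepatocyte genes were present in it. In bulk RNA of this kind, fewer cells of a type and less RNA per cell cannot be told apart.

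T cells recognise peptides on other cells through the TCR, whose variable chains carry no signalling tail of their own. The CD3 chains (Cd3d, Cd3e, Cd3g) and the zeta chain (Cd247) pair with it and carry the signal inwards. The co-receptors CD4 and CD8 (Cd8a, Cd8b1) bind MHC molecules and bring the kinase Lck to the complex. Tcf7 encodes TCF-1, a transcription factor of naive and memory T cells, and Il7r encodes the receptor chain for the survival cytokine IL-7, which innate lymphoid cells also carry. The healthy liver is known for many CD8 T cells, NK cells and unconventional T cells.

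Values are TPM, the length-normalised transcript unit, which divides reads by gene length and scales each library to a fixed total, with a floor of 1.007 TPM below which no value is given. The third WT-NCD library stood apart. Its values followed gene length only, and 19565 of 19576 of its genes that could be checked (99.9%) fitted 0 reads, so all 10 T cell genes had 0 reads there although TPM values are listed. In the other 11 libraries the TPM values fell on steps of whole reads (99.90% to 99.98% of values under 200 reads within 0.05 of a whole number), which gave 1782509 to 11822137 reads per library in the genes that could be resolved. These reads are inferred from the steps, the smallest step being taken as 1 read. U3 small nucleolar RNAs made up 1.24% to 4.84% of TPM in the 5 NCD libraries with reads. In the 6 HFD libraries they made up 25.8% to 58.5%. Noncoding 7S RNAs made up 33.7% to 59.4% in these NCD libraries and 15.8% to 41.1% on HFD. Protein-coding genes made up 22.3% to 42.4% and 15.7% to 25.2%. Results are therefore also given after bringing the protein-coding genes of every library to the same sum (rescaled values). Casp4, the targeted gene, was listed at 12.1, 15.6 and 8.94 TPM in WT-NCD, 7.09, 5.60 and 11.4 in WT-HFD, 4.93, 2.56 and 15.2 under the label Casp11-/- NCD, and 2.78, 8.68 and 4.73 under the label Casp11-/- HFD, so it did not separate the labelled genotypes. Whether these reads lie in the deleted part of the gene cannot be read from a value per gene.

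Promoter windows (RefSeq, GRCm38.p6, 250 bases before to 50 after the start used in that table) are shown for the 3 CD3 chains, whose levels moved together over the libraries, and for Il7r, whose level did not follow them. Windows for 8 of the 10 genes were found, and those of Cd4 and Cd8b1 are not shown. In GRCm38 (GENCODE vM21) the 3 CD3 genes lie within 40.1 kb of chromosome 9, Cd3g at chr9:44969572-44980431 and Cd3e at chr9:44998740-45009627 on the minus strand and Cd3d between them at chr9:44981786-44987339 on the plus strand, with the starts of Cd3g and Cd3d 1355 bases apart. Casp4, the gene targeted in the knockout strain, lies 39.6 Mb away on the same chromosome. Cd8b1 (chr6:71322788-71337494) and Cd8a (chr6:71373427-71379173) are 35.9 kb apart on the plus strand, and Cd4 lies on the same chromosome at chr6:124864692-124888221. Il7r lies at chr15:9505788-9530176, Tcf7 at chr11:52252371-52283014, Lck at chr4:129548344-129573641 and Cd247 at chr1:165788681-165877277. Capitals mark motifs searched on both strands, namely the RUNX core TGTGGT, the TCF core CTTTGA, the ETS core GAGGAA, the E-box CAGCTG, the GATA core AGATAA and the TATA box TATAAA, with their reverse complements. No 2 of the marked motifs overlapped in these windows. The windows are chr9:44981536-44981835 on the plus strand for Cd3d, chr9:45009562-45009861 on the minus strand for Cd3e, chr9:44980382-44980681 on the minus strand for Cd3g and chr15:9529827-9530126 on the minus strand for Il7r.
Cd3d: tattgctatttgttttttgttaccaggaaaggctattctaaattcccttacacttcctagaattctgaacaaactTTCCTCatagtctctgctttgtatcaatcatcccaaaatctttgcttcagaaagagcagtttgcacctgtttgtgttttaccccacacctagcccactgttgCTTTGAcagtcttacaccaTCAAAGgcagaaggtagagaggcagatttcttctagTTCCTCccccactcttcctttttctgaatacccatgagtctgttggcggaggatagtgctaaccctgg
Cd3e: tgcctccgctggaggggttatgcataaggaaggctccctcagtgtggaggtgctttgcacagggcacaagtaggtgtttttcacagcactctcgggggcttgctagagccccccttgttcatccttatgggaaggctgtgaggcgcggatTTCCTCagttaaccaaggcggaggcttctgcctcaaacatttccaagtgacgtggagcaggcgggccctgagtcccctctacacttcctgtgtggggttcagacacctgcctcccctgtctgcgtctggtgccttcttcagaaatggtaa
Cd3g: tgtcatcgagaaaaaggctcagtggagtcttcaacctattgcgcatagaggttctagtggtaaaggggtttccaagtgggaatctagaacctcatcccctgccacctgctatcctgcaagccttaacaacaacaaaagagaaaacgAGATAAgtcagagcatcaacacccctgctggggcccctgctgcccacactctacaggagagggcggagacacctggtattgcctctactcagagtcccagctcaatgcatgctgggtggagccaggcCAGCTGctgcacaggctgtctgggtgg
Il7r: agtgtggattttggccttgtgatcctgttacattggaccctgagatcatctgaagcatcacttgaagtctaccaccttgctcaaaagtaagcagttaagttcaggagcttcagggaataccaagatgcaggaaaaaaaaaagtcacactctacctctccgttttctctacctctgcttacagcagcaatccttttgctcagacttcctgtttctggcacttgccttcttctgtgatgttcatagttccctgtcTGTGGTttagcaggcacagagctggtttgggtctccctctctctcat
The Cd3d window held the TCF core on each strand and the ETS core at 2 places. The Cd3e window held the ETS core once, the Cd3g window a GATA core and an E-box, and the Il7r window a RUNX core. The start used for Il7r is not one of its GENCODE transcript starts, and the 25 bases after it were not found in the gene's GENCODE transcripts, so its window may not be placed at a transcript start. Of 32851 promoter windows, 28.3% held the ETS core, 16.0% the TCF core, 16.3% the E-box, 11.2% the GATA core and 16.8% the RUNX core. These matches are letters in a window and were not tested for binding.

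In TPM before rescaling, the CD3 chains were lower on HFD in most libraries of both genotypes. The values and orders listed gene by gene here and below are of TPM before rescaling, unless said otherwise. Cd3e was listed at 71.3, 94.1 and 8.77 TPM in replicates 1 to 3 of WT-NCD, at 26.7, 16.0 and 43.5 in WT-HFD, at 135, 27.0 and 33.3 in Casp11-/- NCD and at 12.8, 17.1 and 18.4 in Casp11-/- HFD. These came from 49 to 1526 reads in the 11 libraries with reads. Every Casp11-/- HFD library lay below every Casp11-/- NCD library, and the first Casp11-/- NCD library was far above the rest. On rescaled values the diets overlapped in Casp11-/- mice, with 19.7 in the third HFD library and 19.3 in the third NCD library. In WT the HFD libraries lay below the pair of NCD libraries with reads.

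Cd3g was at 52.6, 55.1 and 13.01 TPM in WT-NCD, 23.3, 10.97 and 35.4 in WT-HFD, 111, 21.2 and 23.7 in Casp11-/- NCD and 14.8, 13.1 and 16.2 in Casp11-/- HFD. Cd3d was the least abundant of the CD3 trio, at 7.96, 8.27 and 8.80 TPM in WT-NCD, 5.91, 3.16 and 6.27 in WT-HFD, 13.2, 5.83 and 3.52 in Casp11-/- NCD and 2.47, 2.01 and 3.04 in Casp11-/- HFD. Both genes had the order seen for Cd3e in TPM, with no overlap of the diets in Casp11-/- mice. On rescaled values the diets overlapped in Casp11-/- mice for both. Rescaled Cd3d also overlapped in WT, at 5.74 and 5.36 in the WT-NCD libraries with reads and 5.91, 4.94 and 6.10 in WT-HFD. The lowest Cd3d count was 9 reads, with an exact Poisson 95% interval of 4.12 to 17.1 that covers counting error only.

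Cd247, the zeta chain, was at 5.32, 5.63 and 1.91 TPM in WT-NCD, 2.73, 1.42 and 3.90 in WT-HFD, 8.10, 2.93 and 5.34 in Casp11-/- NCD and 1.01, 2.49 and 2.39 in Casp11-/- HFD. The value of 1.01 is the floor, which allowed up to 18 reads. The diets did not overlap in Casp11-/- mice.

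Among the co-receptors, Cd4 was at 13.9, 14.5 and 3.83 TPM in WT-NCD, 10.2, 5.48 and 20.2 in WT-HFD, 31.2, 5.20 and 9.60 in Casp11-/- NCD and 4.60, 3.91 and 3.30 in Casp11-/- HFD. Its highest WT-HFD library exceeded both WT-NCD libraries with reads, so the diets overlapped in WT. Cd8a was at 39.1, 49.3 and 4.25 TPM in WT-NCD, 17.0, 11.8 and 23.4 in WT-HFD, 67.4, 14.4 and 18.4 in Casp11-/- NCD and 7.74, 9.97 and 10.02 in Casp11-/- HFD. Cd8b1, the partner chain of the CD8 heterodimer, was at 37.8, 39.5 and 8.98 TPM in WT-NCD, 21.4, 9.68 and 24.8 in WT-HFD, 45.8, 19.6 and 16.4 in Casp11-/- NCD and 6.78, 9.61 and 12.6 in Casp11-/- HFD. For both CD8 chains the HFD libraries lay below the NCD libraries with reads within each genotype.

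Lck, the kinase bound to the co-receptors, was at 41.6, 57.1 and 5.55 TPM in WT-NCD, 18.2, 7.93 and 32.4 in WT-HFD, 73.3, 26.7 and 33.9 in Casp11-/- NCD and 11.7, 16.9 and 17.9 in Casp11-/- HFD. It showed the same order as the CD8 chains. Tcf7 varied less, at 10.2, 12.6 and 1.05 TPM in WT-NCD, 7.66, 4.45 and 12.9 in WT-HFD, 16.9, 8.64 and 12.6 in Casp11-/- NCD and 4.60, 6.98 and 8.64 in Casp11-/- HFD. Its diets overlapped in both genotypes.

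Il7r went another way. It was at 16.4, 18.5 and 3.08 TPM in WT-NCD, 22.8, 18.8 and 41.9 in WT-HFD, 29.3, 18.8 and 38.1 in Casp11-/- NCD and 15.5, 19.4 and 16.0 in Casp11-/- HFD, from 169 to 982 reads in the 11 libraries with reads. All 3 WT-HFD libraries lay above the WT-NCD libraries with reads, though only just for the second, and the diets overlapped in Casp11-/- mice. Over the 11 libraries the highest value was 2.71 times the lowest for Il7r and 3.79 times for Tcf7, against 6.56 times for Cd3d to 10.5 times for Cd3e.

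**Figure D1:**
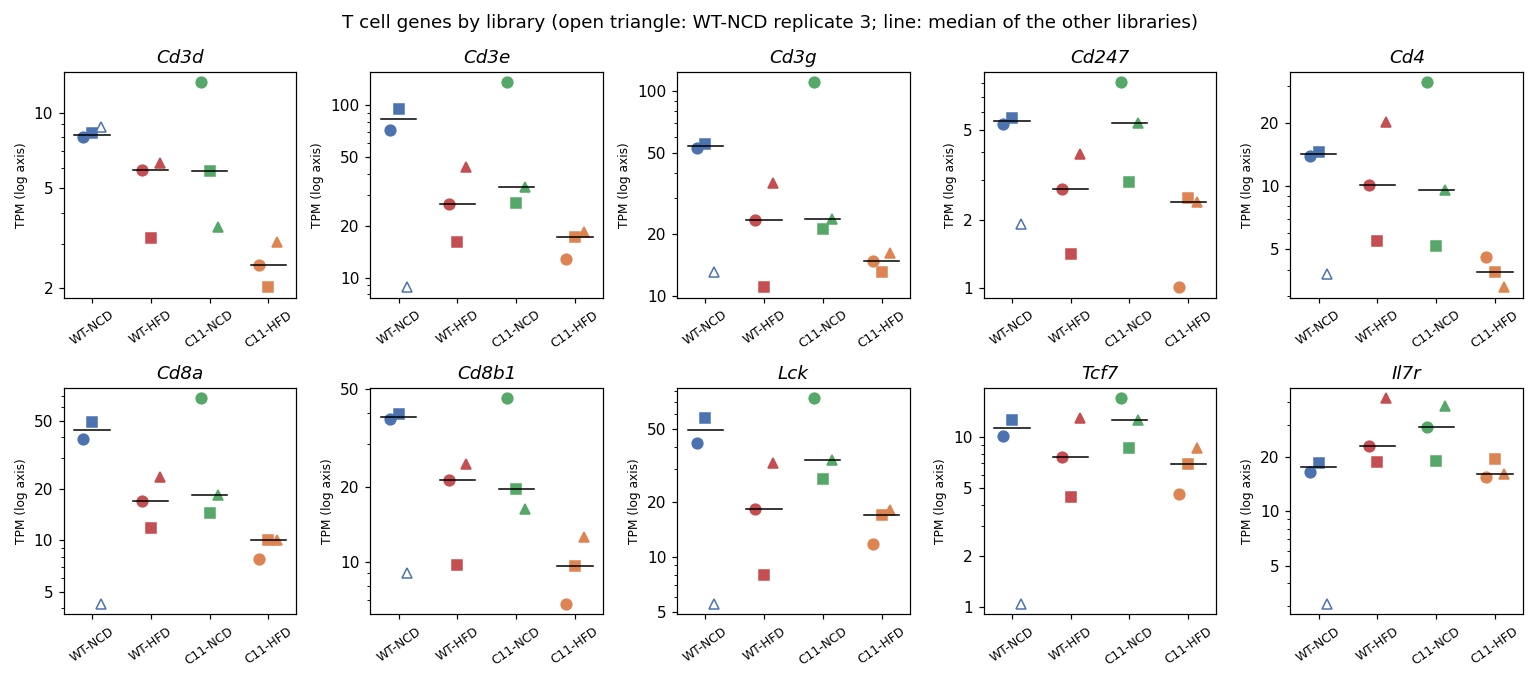
TPM (log axis) of each of the 10 T cell genes in the 12 libraries, by group (C11 stands for Casp11-/-), with circle, square and triangle for replicates 1, 2 and 3, an open triangle for the WT-NCD library with 0 reads and a line at the median of the other libraries. Cd3e reaches 135 TPM in the first Casp11-/- NCD library and lies between 12.8 and 18.4 in Casp11-/- HFD, while Il7r is highest, at 41.9, in a WT-HFD library.

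Diet was first compared with limma over all 12 libraries and 19498 genes. None of the 10 genes passed an adjusted p of 0.05 (0 of 10) in WT, where 0.113% of all genes passed, in Casp11-/- mice, where 0% passed, or averaged over the genotypes, where 0.554% passed. At an unadjusted limma p under 0.05 there were 0 of the 10 genes in WT, against 6.96% of all genes, and 1 in Casp11-/- mice (8.48%) and 1 on average (16.8%), in both cases Cd3d. A voom fit of the inferred reads left out the third WT-NCD library and tested 10983 protein-coding genes. At the same unadjusted p it gave 1 in WT, against 22.1% of those genes, 1 in Casp11-/- mice (28.8%) and 5 on average (39%). The values that follow are from the limma fit of all 12 libraries. The median log2 fold change of the 10 genes (HFD minus NCD, on log2(TPM + 1)) was -0.47 in WT against -0.51 over all genes, -1.32 in Casp11-/- mice against -0.43, and -0.87 on average against -0.61. Groups did not overlap, HFD lower, for 8 of the 10 genes in Casp11-/- mice, against 15.1% of all genes, and for 1 of 10 in WT, against 13.7%. The gene in WT was Cd3d. Its value in the third WT-NCD library, from 0 reads, was 8.80 TPM, near the 7.96 and 8.27 of the other WT-NCD libraries. For Cd3e the value there was 8.77 against 71.3 and 94.1. The counts at unadjusted limma p and the overlap count in WT therefore depend on that library.

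Without the third WT-NCD library, 6 of the 10 genes were called lower on HFD on average over the genotypes, against 17.3% of 17950 genes called lower. They were Cd3e (log2 fold change -1.59 ± 0.41 SE, adjusted p = 0.0153), Lck (-1.41 ± 0.38, 0.0201), Cd8a (-1.38 ± 0.39, 0.0225), Cd8b1 (-1.21 ± 0.37, 0.0309), Cd3g (-1.33 ± 0.41, 0.0331) and Cd247 (-0.98 ± 0.34, 0.0478). Cd3d (-0.87, adjusted p = 0.0905), Cd4 (-0.89, 0.12), Tcf7 (-0.66, 0.185) and Il7r (-0.06, 0.894) did not pass. Within a genotype no gene of the 10 passed: the median was -0.99 in WT, where 2.18% of genes passed, and -1.32 in Casp11-/- mice, where 1.1% passed. In WT, 7 of 10 genes did not overlap with HFD lower, against 40.3% of all genes, and Il7r did not overlap with HFD higher, against 14.3%.

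The 6 calls were lost once protein-coding genes were also rescaled, in a fit of 12368 protein-coding genes in place of 17950 genes of all types. Over the 12368 genes that both fits tested, the median for diet on average over genotypes moved from -0.60 to -0.05. The U3 share of TPM, 1.24% to 4.84% on NCD and 25.8% to 58.5% on HFD, moved with diet, and its part in the 6 calls was not tested beyond this rescaling. On the rescaled values 0 of 10 genes passed, against 13.7% of 12368 genes, with Cd3e at -0.94 (95% interval -1.66 to -0.22, adjusted p = 0.0743) and Lck at -0.77 (-1.37 to -0.18, 0.0748). The median of the 10 genes lay 0.49 below that of the same 12368 genes before the rescaling (-1.09 against -0.60) and 0.47 below it after (-0.52 against -0.05). Fewer genes then kept the diets apart with HFD lower. In WT they were Cd3e, Cd3g, Cd8a and Cd8b1 (4 of 10, against 19.8% of all genes). In Casp11-/- mice they were Cd247, whose lowest value is the floor, and Lck (2 of 10, against 14.5%). Il7r did not overlap with HFD higher in WT (1 of 10, against 31.8%).

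Il7r was higher on HFD than on NCD in WT in each of these fits. In WT its log2 fold change was 1.29 ± 0.60 (SE) over all 12 libraries (adjusted p = 0.513), 0.57 ± 0.51 without the third WT-NCD library (0.541) and 1.27 ± 0.28 after rescaling as well (95% interval 0.66 to 1.88, adjusted p = 0.054). The reads recovered from the TPM steps were tested with limma voom without the third WT-NCD library, an alternative chosen after the data were seen. In that voom fit Il7r was called higher on HFD in WT (1.26 ± 0.26, adjusted p = 0.0404), where 0.947% of genes were called higher. Il7r was also called higher on average (0.58 ± 0.17, 0.0367), where 8.76% were. In Casp11-/- mice it was at -0.12 (-0.67 to 0.42) on the rescaled values. The difference between the genotypes in this diet effect was -1.39 ± 0.38 on that scale, with an unadjusted p of 0.00276 and an adjusted p of 0.881, so it did not pass.

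**Figure D2:**
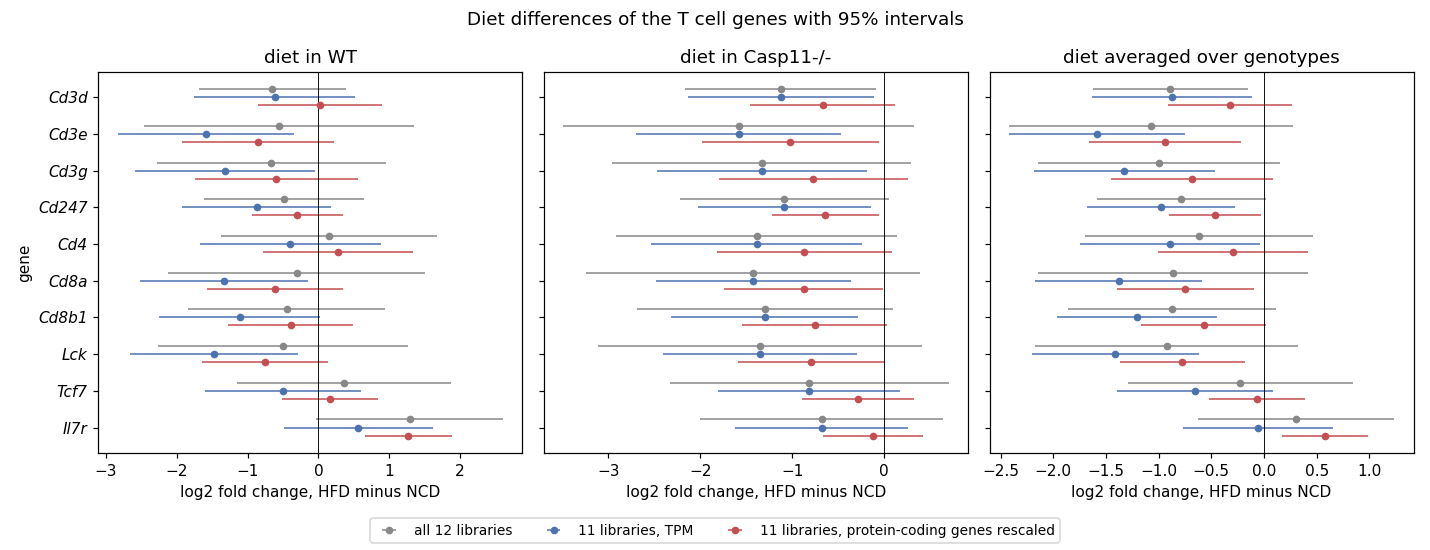
Log2 fold change (HFD minus NCD) of each gene with its 95% interval, in WT mice, in Casp11-/- mice and averaged, over all 12 libraries (grey), over 11 libraries (blue) and over 11 libraries with protein-coding genes rescaled (red). On average over genotypes Cd3e moves from -1.59 in blue to -0.94 in red, and Il7r from -0.06 to 0.57.

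The genotypes were then compared within each diet, and 0 of 10 genes passed in either, as did 0% of all genes over the 12 libraries. On HFD all 10 genes were listed lower in Casp11-/- than in WT on average, with a median of -0.66 against -0.02 over all genes. The groups did not overlap for Cd3d, Cd4 and Cd8a (3 of 10, against 2.87% of all genes), and on the rescaled values also not for Cd3e, Cd8b1 and Il7r (6 of 10, against 7.67%). Cd4 differed most, at -1.27 ± 0.44 rescaled (95% interval -2.22 to -0.32), with an unadjusted p of 0.0129 and an adjusted p of 0.9997. At an unadjusted p under 0.05, Cd3d, Cd4, Cd8b1 and Il7r passed on that scale (4 of 10, against 2.51% of 12368 genes).

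On NCD the direction depended on single libraries. The median of the 10 genes was 0.31 over all 12 libraries, -0.35 without the first Casp11-/- NCD library and -0.26 without the third WT-NCD library, and -0.12 without the third WT-NCD library and with the rescaling as well. Il7r was higher in Casp11-/- than in WT over all 12 libraries, without the third WT-NCD library and with the rescaling as well (1.36, 0.64 and 0.75) and did not pass in any of these fits (adjusted p = 0.553, 1 and 0.993).

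The interaction of diet and genotype gave 0 of 10 calls, with 0% of all genes called over the 12 libraries. The median was -0.94 over all 12 libraries, -0.20 without the third WT-NCD library and -0.35 with the rescaling as well. The first Casp11-/- NCD library was the highest for 9 of the 10 genes. Without it the median diet difference in Casp11-/- mice fell in size from -1.32 to -0.74, and from -0.76 to -0.31 on the rescaled values.

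Ratios within a library do not depend on the scaling of that library, and were looked at after the values were seen, so they are given as descriptions. Cd8a followed Cd3e most closely, with a ratio of 0.50 to 0.55 in the 5 NCD libraries and 0.54 to 0.73 in the 6 HFD libraries. Cd3g to Cd3e was 0.59 to 0.82 on NCD and 0.68 to 1.15 on HFD. Of the ratios to Cd3e, that of Il7r ranged widest, from 0.196 to 1.15 on NCD and from 0.854 to 1.20 on HFD. It was 0.230 and 0.196 in the WT-NCD libraries with reads and 0.216 in the first Casp11-/- NCD library, but 0.697 and 1.15 in the other two. Tcf7 to Cd3e was 0.125 to 0.377 on NCD and 0.278 to 0.470 on HFD, low in the same 3 NCD libraries. Cd8a to Cd4 was 1.92 to 3.40 on NCD and 1.16 to 3.04 on HFD, so the diets overlapped. Cd3e to Ptprc, the CD45 gene of all white blood cells, was 0.0636 to 0.557 on NCD and 0.0902 to 0.184 on HFD.

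**Figure D3:**
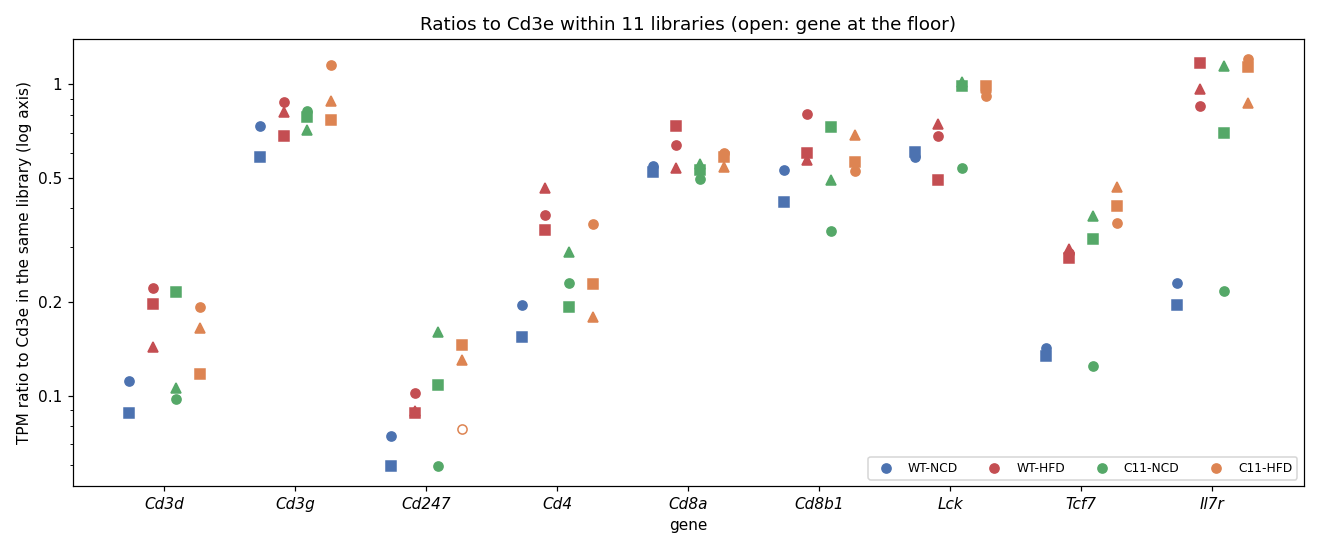
Ratio of each gene's TPM to that of Cd3e in the same library (log axis), in 11 libraries coloured by group, with the same symbols for replicates and an open symbol where the gene was at the floor. Cd8a stays between 0.50 and 0.73, while Il7r spans 0.196 to 1.20.

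The TCR chains themselves could be read only in part. Trac, the constant region of the alpha chain, was at 71.2, 90.4 and 14.4 TPM in WT-NCD, 40.1, 24.6 and 69.8 in WT-HFD, 140 in the first and 28.9 and 31.5 in the other Casp11-/- NCD libraries, and 24.8, 25.8 and 21.7 in Casp11-/- HFD. It was 0.947 to 1.07 times Cd3e on NCD and 1.18 to 1.93 times on HFD. This ratio was also looked at after the values were seen, and how many other genes would part the diets in this way was not tested. Trdc, the constant region of the delta chain of gamma-delta T cells, was at 10.1, 18.9 and 12.04 TPM in WT-NCD, 8.38, 5.33 and 8.75 in WT-HFD, 46.0, 10.8 and 19.1 in Casp11-/- NCD and 6.95, 8.12 and 7.53 in Casp11-/- HFD. Trbc1 and Trbc2, near-identical constant regions of the beta chain, had at most 25 reads in any library, so their split is uncertain.

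Other T cell genes were counted in lists written from general knowledge, to be read against 17.3% of all genes called lower. On average over genotypes and without the third WT-NCD library, 13 of 21 costimulatory and surface genes, 11 of 19 transcription factors, 9 of 27 genes of proximal TCR signalling, 4 of 12 trafficking genes, 1 of 7 TCR constant regions (Trdc) and 3 of the 50 tested among 178 TCR variable segments were called lower on HFD, and 0 of these lists' genes higher. Over all 12 libraries 0 genes of these lists were called. The inhibitory receptor Pdcd1 (-1.68, adjusted p = 0.000665) and the adhesion receptor Cd2 (-2.02, 0.0014) led the surface genes. Klf2, which keeps naive T cells circulating, was at -1.97 (0.00539), the lymph node homing receptor Ccr7 at -2.03 (0.00229) and the chemokine Ccl5 at -1.82 (0.0014). In signalling, Csk, which restrains Lck, was at -1.83 (0.00504) and the adaptor Lat, which Zap70 phosphorylates, at -1.32 (0.0272).

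With the rescaling as well, where 6.26% of genes were called lower and 7.41% higher, 2 surface genes, 6 transcription factors, 3 signalling genes and 3 trafficking genes were called lower, and the signalling gene Trat1 (0.62, adjusted p = 0.0168), named after its values were seen, was called higher. Pdcd1 (-1.18, 0.0046), Cd2 (-1.37, 0.00702), Klf2 (-1.31, 0.022), Ccr7 (-1.38, 0.0133), Ccl5 (-1.16, 0.00688) and Csk (-1.18, 0.0135) were among those called lower, so they were called on both scales. Several of these genes are also expressed by B cells or NK cells.

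Markers of other cells moved too. On the rescaled values without the third WT-NCD library, diet was compared on average over genotypes. Called lower on HFD were 7 of 8 B cell markers and 3 of 9 NK cell markers, against 6.26% of all genes. Called higher were 9 of 12 macrophage and Kupffer cell markers and 5 of 6 endothelial markers, against 7.41%. Of the other lists, 2 of the 6 listed innate lymphoid and 3 of the 9 listed dendritic cell markers were called higher. Of the 7 listed neutrophil markers 1 was called lower, and 0 of 7 hepatocyte markers were called either way. Cd79a, a signalling chain of the B cell receptor, was at 173 to 381 rescaled TPM on NCD and 54.4 to 97.9 on HFD. The summed B cell list was 505 to 1115 rescaled TPM on NCD and 207 to 337 on HFD. The summed NK list was 160 to 294 on NCD and 105 to 153 on HFD. The summed macrophage and Kupffer list overlapped between the diets, at 413 to 2426 on NCD and 915 to 1951 on HFD. Lyz2 alone made up 2266 of the 2426 in the second WT-NCD library and 1926 of 2276 in the third Casp11-/- NCD library. That sum therefore follows Lyz2 more than the 9 of 12 genes called higher. Hepatocyte markers summed to 4227 to 22765 on NCD and 9741 to 22431 on HFD, with all 7 above the floor in every library with reads. The summed 10 T cell genes were 113 to 355 on NCD and 105 to 238 on HFD. The second Casp11-/- HFD library stood apart in neutrophil markers, which summed to 4248 rescaled TPM there, with S100a8 at 2525 and Retnlg at 1131, and to 132 to 632 in the other 10 libraries with reads. Without it the median diet difference of the 10 genes in Casp11-/- mice was -1.29 over the other 11 libraries and -0.74 on rescaled values without the third WT-NCD library, against -1.32 and -0.76 with it. The part of the other cells in the T cell results was not tested beyond this.

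**Figure D4:**
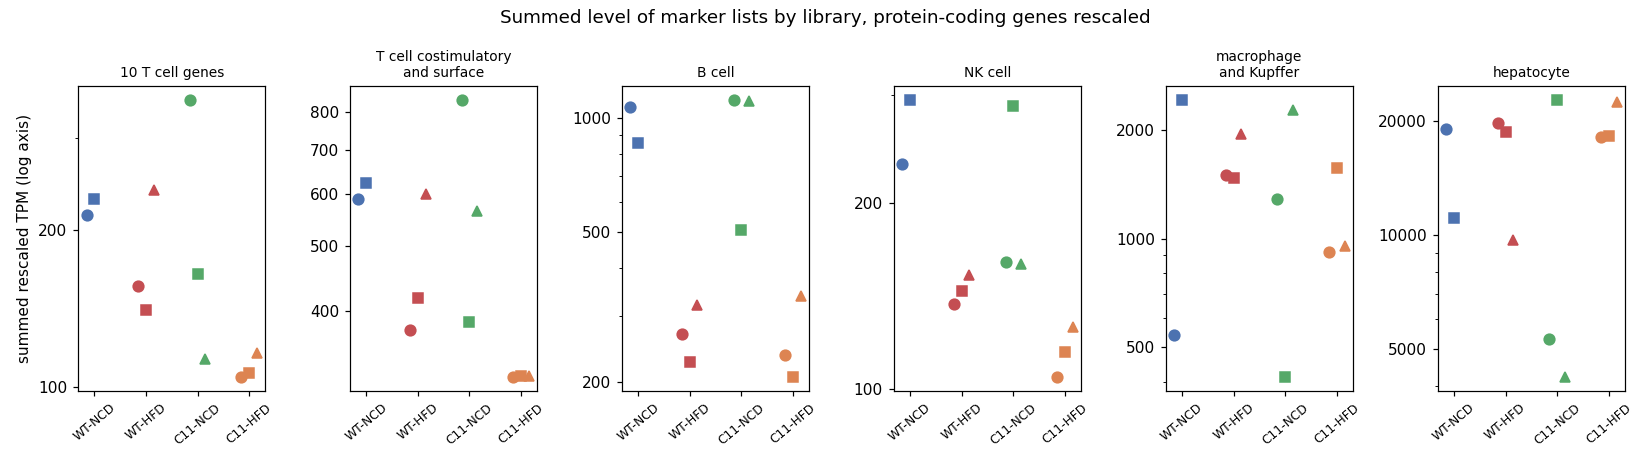
Summed rescaled TPM (log axis) of the 10 T cell genes and of 5 marker lists in 11 libraries by group, with circle, square and triangle for replicates 1, 2 and 3. The B cell sums do not overlap between the diets (505 to 1115 against 207 to 337), while the sums of the 10 T cell genes do.

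The 10 other genes closest to the mean of Cd3d, Cd3e and Cd3g over the 11 libraries, out of 11432 genes compared on the rescaled log2 values, were Cd7 (Pearson r = 0.97), Thy1 (0.97), Cxcr3 (0.96), Il2rb (0.94), Vcp (0.92), Abhd8 (0.92), H3c8 (0.91), S100a10 (0.91), Sec24d (0.91) and Cd6 (0.91). Of the other members, Cd8a (0.97) and Cd8b1 (0.93) were closest to the CD3 mean, Cd247 (0.78) and Tcf7 (0.61) were further from it and Il7r was at -0.16. These are correlations over 11 libraries that share groups and depth, given as a description.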

How the data were processed

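Total RNA of the liver immune cell fraction was sequenced in 12 libraries. Stranded libraries were primed at random, and the authors aligned the reads with STAR to mm10 (GRCm38.p6 is also named in the submitters' processing notes) and deposited 1 score per gene and library, namely TPM with a floor of 1.007, for 40840 genes. A further 6 lines per file name no gene and were left out. No columns of counts are used, and reads were inferred from the steps of the TPM values.

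Models were fitted to log2(TPM + 1) by limma 3.58.1 (R 4.3.3, mean-variance trend on). In these models a gene was tested when 3 or more libraries held it above the floor. Two-sided p-values were adjusted by the Benjamini-Hochberg method over all genes, with a threshold of 0.05. The voom fit left out the third WT-NCD library, took protein-coding genes above the floor in 6 or more libraries and had the trend off. There a value at the floor entered as the most reads the floor allowed, such as 18 for Cd247. Fold changes on the log2(TPM + 1) scale understate changes of low genes. The 10 genes, the lists and the rule that named the other genes (per list, from the up to 5 genes of smallest p in each direction past the threshold with or without the third WT-NCD library, and the 2 most abundant constant regions and markers) were chosen with earlier results of these data known. In all, 34 settings were run per comparison, 20 of them planned and 14 added after the data were seen. They covered the floor filter, a pseudocount of 0.1, protein-coding rescaling (RefSeq gene types), array weights, a replicate block, voom on recovered reads and each library left out. The labels give replicate numbers only, so each library was taken as a separate mouse and p-values measure the spread between libraries. In fits of all libraries that spread includes the third WT-NCD library, whose values followed gene length only. The limma model and the recovery of reads were run on simulated data built on their own assumptions. Such runs cannot show that the real data meet these assumptions. Promoters came from RefSeq. Tables and plots were made in Python 3.11.15 (matplotlib 3.10.9, SciPy 1.17.1, numpy 2.4.6, pandas 2.3.3). Single results of some list genes are not reported here.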

Additional observations from a re-analysis of the deposited data

How the results depend on the processing

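Over the 34 settings of each comparison, the number of the 10 T cell genes past the threshold was 0 in the planned fit and changed as follows. With array weights, planned but with no convergence reached, it was 10 for diet in WT, 4 for diet on average and 6 for genotype on HFD. In rescaled values without the third WT-NCD library, array weights gave 3, 8 and 9 for diet in WT, in Casp11-/- mice and on average. The shares of all genes called with array weights are not reported here. These counts therefore cannot be read as particular to the T cell genes. With voom the number of the 10 genes was 1 for diet in WT and 1 on average (Il7r). With 1 library left out on either scale it was 0 to 1 for diet in WT, 0 to 1 in Casp11-/- mice and 0 to 6 on average. With the replicate number as a replicate block it was 0, and the median for diet on average stayed at -0.87. Of same-numbered pairs of libraries, 7 of 18 deviated together (r above 0.1), against 17 of 36 differently numbered pairs. Without the third WT-NCD library these were 7 of 15 against 9 of 30. There the remaining WT-NCD libraries mirror each other around their group mean, so the pairs with them are not independent. Not every same-numbered pair was over 0.1, which cannot show whether a number marks a shared batch. The libraries were taken to share only a number. The cause of the changes in the number of genes past the threshold was not tested. The voom fit and the fits that add array weights, a block or a further left-out library to the rescaled values without the third WT-NCD library were chosen after seeing the data. The median for genotype on NCD reversed to -0.35 without the first Casp11-/- NCD library, to -0.12 in rescaled values without the third WT-NCD library, to -0.79 with array weights, to -0.25 with voom and to -0.12 with the replicate block and rescaling, and that for the interaction to 0.11 with array weights. With 1 library left out the medians ran from -0.99 to 0.076 for diet in WT, -1.55 to -0.31 in Casp11-/- mice, -0.58 to 0.75 for genotype on NCD and -1.54 to -0.075 for the interaction.

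Single genes reversed as follows. For diet in WT, Cd3d went to 0.018 in rescaled values without the third WT-NCD library, 0.011 with array weights as well and 0.14 with the replicate block as well, Cd8a to 0.017 in rescaled values of all 12 libraries, and Cd4 to -0.42 and Tcf7 to -0.43 with array weights. For diet on average, Tcf7 went to 0.21 in rescaled values and Il7r to -0.082 with array weights. For genotype on NCD in rescaled values without the third WT-NCD library, Cd3e went to -0.57, Cd3g to -0.34, Cd4 to -0.12, Cd8a to -0.58, Cd8b1 to -0.49 and Lck to -0.13; with array weights as well Cd3d went to 0.38; with the replicate block as well Cd3d went to 0.0057, Cd3e to -0.51, Cd3g to -0.26, Cd247 to -0.030, Cd4 to -0.088, Cd8a to -0.48, Cd8b1 to -0.44 and Lck to -0.16. With array weights over all libraries Cd3e went to -1.29, Cd3g to -1.20, Cd247 to -0.30, Cd4 to -0.83, Cd8a to -1.26, Cd8b1 to -1.07 and Lck to -0.53, with voom Cd3e to -0.69, Cd3g to -0.44, Cd247 to -0.074, Cd4 to -0.24, Cd8a to -0.72, Cd8b1 to -0.61 and Lck to -0.23, and in rescaled values of all 12 libraries Cd3g to -0.10 and Cd8b1 to -0.24. For the interaction, array weights gave Cd3e 0.67, Cd3g 0.51, Cd247 0.15, Cd8a 0.53, Cd8b1 0.084 and Lck 0.42, voom gave Lck 0.066 and the replicate block with rescaling gave Lck 0.0039.

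With 1 library left out, diet in WT ran from -0.80 to 0.10 for Cd3d, -1.59 to 0.053 for Cd3e, -0.40 to 0.57 for Cd4, -1.34 to 0.29 for Cd8a, -1.48 to 0.10 for Lck and -0.50 to 0.86 for Tcf7, and diet on average from -0.66 to 0.025 for Tcf7 and -0.058 to 0.67 for Il7r. Genotype on NCD ran from -0.75 to 0.38 for Cd3d, -1.19 to 0.93 for Cd3e, -0.999 to 0.60 for Cd3g, -0.19 to 0.62 for Cd247, -0.69 to 0.83 for Cd4, -1.15 to 0.91 for Cd8a, -0.83 to 0.38 for Cd8b1 and -0.46 to 1.31 for Lck, and genotype on HFD from -0.64 to 0.31 for Lck and -0.54 to 0.14 for Tcf7. The interaction ran from -1.64 to 0.46 for Cd3e, -1.11 to 0.48 for Cd3g, -1.71 to 0.31 for Cd8a and -1.45 to 0.31 for Lck. Depth limits Cd3d and Cd247 most, with as few as 9 and at most 18 reads.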
